A study of Mus musculus with 21 samples.

Results

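The regions described here are DNase I hypersensitive sites (DHS, stretches of open chromatin that DNase I cuts readily) that were open at 3 successive stages of early innate lymphoid cell development in mouse bone marrow and that carried a TCF1 peak at the middle stage. They were selected on the deposited peak calls alone, that is on the presence of a DHS peak in every stage and of a TCF1 peak. DHS peaks of the 3 stages on chromosomes 1 to 19 and X were merged wherever they shared 1 bp, which gave 102313 regions. Of these, 39851 held a peak of every stage, and 3117 of those overlapped a TCF1 peak by 1 bp or more. The TCF1-bound all-stage DHS therefore made up 7.82% of the all-stage DHS (95% Wilson interval 7.56 to 8.09, counting of regions only) and 3.05% of all regions. They held 3240 of the 6679 TCF1 peaks (48.5%).

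The earliest stage, ALP, is the all-lymphoid progenitor. EILP are early progenitors already directed to the innate lymphoid lineage, and ILCP are its later committed precursors. All were sorted from C57BL/6 bone marrow as Lin- Kit+ 2B4+ cells. ALP were in addition a4b7-, Flt3high and IL-7Ra+ and of genotype Tcf7EGFP/+. EILP were a4b7+, Tcf7+ and Thy1- and of genotype Tcf7EGFPnull/+, and ILCP were Thy1+ and IL-7Ra+ besides a4b7+ and Tcf7+, of genotype Tcf7EGFP/+. The EILP source is also named wild type in the labels, and if the genotype label holds, stage and a null Tcf7 allele cannot be told apart in any comparison with EILP. Open chromatin came from DNase-seq with 3 libraries of 300 cells per stage, and TCF1 binding in EILP from CUT&RUN on fixed cells, in which an antibody guides a nuclease to the bound DNA, with 6 TCF1 and 4 IgG libraries of 500 cells. The labels give no age and do not say which libraries came from separate mice, and the cell types were not checked against marker genes because no expression was measured.

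Each stage and TCF1 had 1 peak list called on pooled tags, so replicate error could not be given, no difference between stages or groups of regions was tested, and intervals cover counting error only. The lists rested on 12420429 tags for ALP, 11236009 for EILP, 12681410 for ILCP and 2418839 for TCF1. The height of a region in a stage is the pileup (overlapping 100 bp tags) at its highest summit, per 1000000 tags of that stage. Positions are on mouse build mm9. Regions are named by position and shown without sequence, because no annotation or genome of that build was used here.

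TCF1, encoded by Tcf7, is a transcription factor of the TCF/LEF family that binds DNA through an HMG box, a domain that sits in the minor groove and bends the helix. It is needed early in both the T cell and the innate lymphoid lineages. Tcf7 expression marks the EILP stage, and the sort of EILP and ILCP used it. A DHS shared by a progenitor and its descendants is a region that stays accessible while the cells specialise, and promoters of widely used genes are commonly among such sites.

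TCF1-bound all-stage DHS were taller than the other all-stage DHS at every stage, and wider. Their median height was 2.17 in ALP, 2.40 in EILP and 2.21 in ILCP, per 1000000 tags, against 1.37, 1.51 and 1.42 in the 36734 all-stage DHS without a TCF1 peak. In tags these medians were 27, 27 and 28 with TCF1 and 17, 17 and 18 without it. The ratio of the medians was 1.59 at the first stages, ALP and EILP, and 1.56 at ILCP. TCF1 binding was measured in EILP only, and the order of height and binding was not tested. Both sets had regions close to the detection limit, with 12, 6 and 12 TCF1-bound regions at 6 tags or fewer over the stages in order (0.385%, 0.192% and 0.385%), against 443, 379 and 488 without TCF1 (1.21%, 1.03% and 1.33%). The median width was 400 bp with TCF1 and 283 bp without. A wider region has more room to meet a TCF1 peak by 1 bp, so this difference is not independent of the selection.

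**Figure D1:**
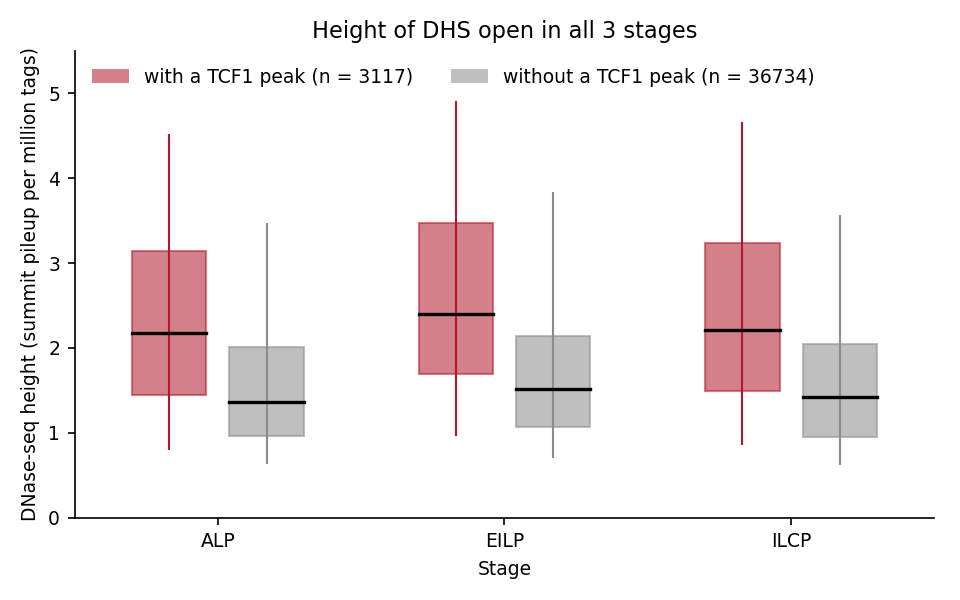
Height of DHS open in all 3 stages, as summit pileup per 1000000 tags, with (red) and without (grey) a TCF1 peak. Black lines are medians, boxes the middle 50% of regions and thin lines the 5th to 95th percentile over regions; the TCF1-bound medians of 2.17, 2.40 and 2.21 lie above those without TCF1 at every stage.

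The share of all-stage DHS with a TCF1 peak followed height and width. In 5 classes of equal size by mean height over the stages, 1.88%, 3.56%, 5.77%, 9.30% and 18.6% were bound, from the lowest to the tallest. In 5 classes by width the shares were 1.77%, 3.21%, 6.14%, 10.6% and 17.4%. Of the 3117 bound regions, 1482 lay in the tallest class. Taking height and width at once, 23.4% of the 3836 regions in the tallest and widest classes were bound, against 0.928% of the 3341 regions in the lowest and narrowest. Height and width move with the share, and their part in it was not tested. The overlap rule itself gives wider regions more room to meet a TCF1 peak.

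**Figure D2:**
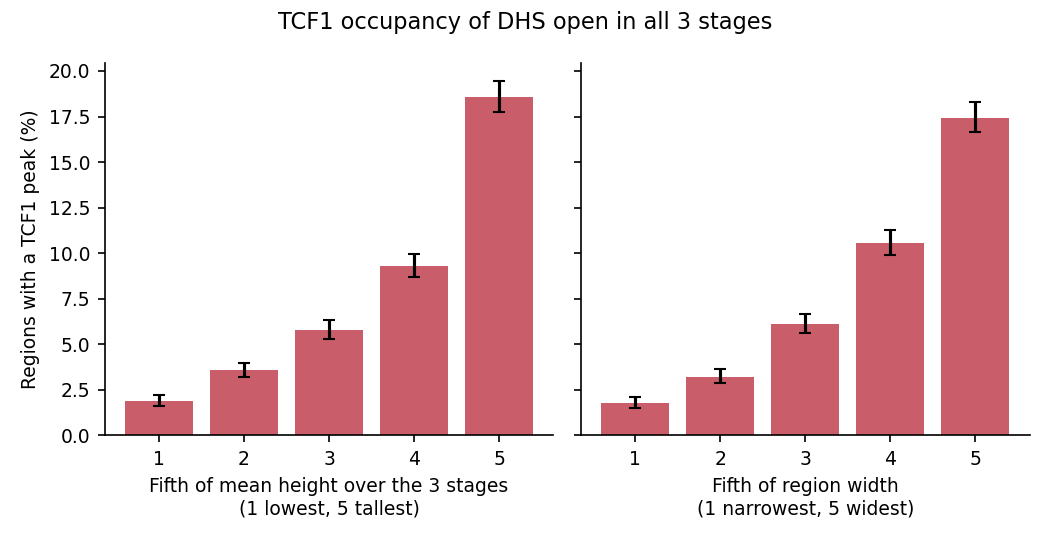
Percent of DHS open in all 3 stages that overlap a TCF1 peak, in 5 equal classes by mean height (left) and by width (right). Bars are shares of about 7970 regions each, and error bars are 95% Wilson intervals; the share climbs from 1.88% to 18.6% with height and from 1.77% to 17.4% with width.

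Regions open in only some of the stages had lower shares with a TCF1 peak. Of the 4258 regions with a TCF1 peak, 73.2% were open in all stages. Among regions open in EILP and ILCP but not ALP, 479 of 9480 were bound (5.05%, 4.63 to 5.51). Among those open in ALP and EILP but not ILCP, 178 of 9747 were bound (1.83%, 1.58 to 2.11). The share was lowest in regions open in ALP alone, with 87 of 11601 (0.750%, 0.608 to 0.924). The median width was 291 bp over all regions open in every stage and 230 bp for EILP with ILCP. It was 231 bp for ALP with EILP and 145 bp for ALP alone. Among the bound regions it was 400, 291, 253.5 and 167 bp in the same order. Heights were not compared between these sets, and the part of height and width in the shares was not tested.

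The TCF1 peaks in the all-stage DHS were taller than the other TCF1 peaks. Their height had a median of 6 tags (middle 50%, 5 to 8), against 5 tags (4 to 6) in the 1141 peaks that lay in other DHS and 4 tags (4 to 5) in the 2298 peaks outside DHS. At least 8 tags were found in 28.4% of the peaks in all-stage DHS, in 8.94% of those in other DHS and in 1.35% of those outside. The authors' fold enrichment over local background had medians of 5.28, 5.15 and 4.43 in the same order. Even so, 39.2% of the bound all-stage DHS had a strongest TCF1 peak of 5 tags or fewer.

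Most of these DHS held a single TCF1 site. Of the 3117, 2994 overlapped 1 TCF1 peak, 120 overlapped 2, 2 overlapped 3, and 1 overlapped 6. The TCF1 summit lay at a median of 58 bp from the EILP DHS summit and within 50 bp in 44.6% of regions. Its median distance was 59 bp to the ALP summit and 56 bp to the ILCP summit. The TCF1 summit fell in the middle part of the region, when the region was cut into 3 equal parts, in 1643 cases (52.7%), in an outer part in 1277 (41.0%), and outside the region in 197 (6.32%).

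The DHS summits of bound regions moved little between stages. The distance between the EILP and ALP summits had a median of 25 bp in bound and 19 bp in unbound all-stage DHS, and 70.6% and 77.4% of them lay within 50 bp. The same held for ILCP and EILP, with medians of 25 and 19 bp. The bound regions were also the wider ones, and the part of width in these distances was not tested. In 90.3% of the bound and 95.2% of the unbound regions each list contributed exactly 1 peak.

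At the edge of the selection, 51 regions overlapped a TCF1 peak by 20 bp or less and had a median height of 1.63 over the stages. Another 132 all-stage DHS had a TCF1 peak within 100 bp but no overlap, with a median height of 1.65. Both sets were shorter than the bound regions as a whole (2.24) and taller than the unbound ones (1.42).

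The next question was how these DHS differed in height between stages. For ILCP over ALP, the span of the whole series, the bound all-stage DHS had a median log2 ratio of 0.07, the same to 2 decimals as all 39851 all-stage DHS. In 399 of 3117 bound regions (12.8%) ILCP was at least 1.5-fold higher than ALP, and the same was true of 15.2% of all all-stage DHS. In 326 (10.5%) ILCP was at least 1.5-fold lower, against 14% of all all-stage DHS. The middle 50% of bound regions lay between log2 ratios of -0.22 and 0.35, and the middle 50% of unbound regions between -0.31 and 0.39. Larger differences were few: 149 bound regions were at least 2-fold higher and 127 at least 2-fold lower in ILCP, 4.78% and 4.07%, against 4.32% and 5.91% of all all-stage DHS.

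EILP heights lay above ALP heights in this scale. EILP was at least 1.5-fold higher than ALP in 453 bound regions (14.5%; all all-stage DHS 16.9%) and at least 1.5-fold lower in 120 (3.85%; all 6.66%). ILCP was at least 1.5-fold higher than EILP in 119 (3.82%; all 7.48%) and at least 1.5-fold lower in 407 (13.1%; all 17.1%). At 2-fold, 165 bound regions were higher and 17 lower in EILP than in ALP (5.29% and 0.545%; all 4.66% and 1.46%), and 17 were higher and 142 lower in ILCP than in EILP (0.545% and 4.56%; all 1.3% and 5.93%). The tilt towards EILP was shared by all all-stage DHS, whose median log2 ratio was 0.14 for EILP over ALP and -0.09 for ILCP over EILP. The first of these equals the log2 ratio of the tag totals of the 2 stages, since the median region had the same number of tags in both. After centring on the median of all all-stage DHS, 337 bound regions were higher and 227 lower in EILP than in ALP (10.8% and 7.28%; all 11.5% and 11.4%), and 194 were higher and 305 lower in ILCP than in EILP (6.22% and 9.79%; all 10.1% and 13.6%). For ILCP over ALP the centred counts were 332 higher and 388 lower (10.7% and 12.4%; all 12.4% and 16.1%), so the more frequent direction depends on the scaling there.

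Counting error sets how these differences can be read. At the median of 28 ILCP and 27 ALP tags of a bound region, the ratio is 1.02 with an exact 95% interval of 0.577 to 1.79 (Clopper-Pearson on the tag counts). At the medians of unbound regions, 18 and 17 tags, the interval is wider, 0.504 to 2.14. A single region just past 1.5-fold is thus within counting error at these heights, and fewer tags give wider intervals. Regions also had to keep a peak in every list, so a DHS that was not called at 1 stage is not among them.

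Since bound regions are taller, the shares were also compared within classes of height. In the next-to-tallest of the 5 height classes, 23.2% of the 741 bound regions were at least 1.5-fold higher in EILP than in ALP, against 15.6% of the 7229 unbound ones, a difference of 7.61 percentage points (4.59 to 10.9, counting of regions only). This gap was the widest of all height classes and comparisons of stages, and the interval takes no account of picking it. Among regions with at least 20 tags in a stage, with the classes drawn anew, the difference in that class was 2.80 percentage points, below this interval. In that class 5.26% of bound and 5.33% of unbound regions were lower by as much. For ILCP over ALP in the same class, 18.5% of bound and 13.5% of unbound regions were higher, and 14.8% and 15.6% were lower. The middle class showed a smaller gap in the same direction, with 23.5% of bound and 20.2% of unbound regions higher in EILP. The lowest class had 20.7% and 19.1%. The order was the other way in the tallest class, with 5.67% and 6.89%, and in the second class, with 20.4% and 22.2%. After centring, the next-to-tallest class had 17.7% of bound and 10.3% of unbound regions higher in EILP.

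**Figure D3:**
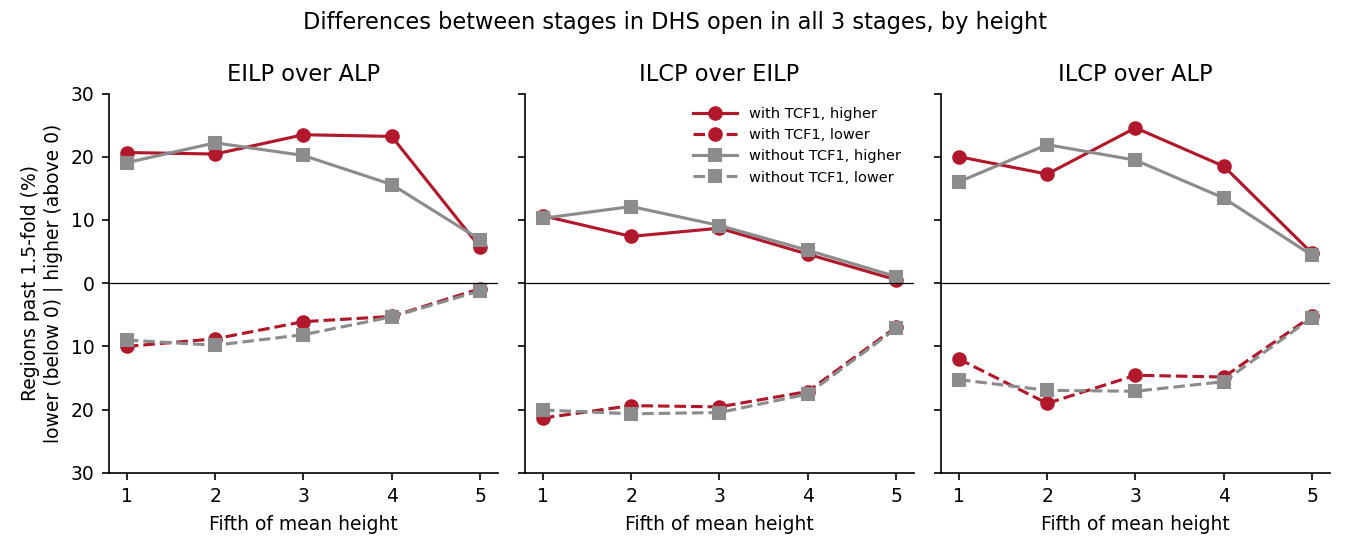
Percent of all-stage DHS past 1.5-fold in each comparison of stages, by class of mean height (1 lowest, 5 tallest), with (red circles) and without (grey squares) a TCF1 peak. Solid lines above 0 are regions higher in the later stage and dashed lines below 0 regions lower in it; the widest gap is in class 4 for EILP over ALP, 23.2% with and 15.6% without TCF1.

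Within that class the gap was in the 3 wider sets of regions. Split by width, bound and unbound regions of the next-to-tallest height class were higher in EILP in 16.7% and 13.9% of the narrowest, in 12.6% and 13.9% of the next, and then in 23.9% and 14.8%, 23.3% and 16.6%, and 26.7% and 17.8% towards the widest. The narrowest of these sets held 18 bound regions. The 2 widest sets were also lower in ILCP than in ALP less often when bound: 17.7% against 24.6%, and 15.0% against 21.5%. In the second narrowest set it was the other way, with 11.5% against 4.96%.

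The 399 bound regions higher in ILCP than in ALP differed more at the step to EILP than at the step to ILCP. Their median heights over the stages in order were 1.05, 1.87 and 2.13. The median log2 ratio was 0.78 for EILP over ALP and 0.17 for ILCP over EILP. The 5657 unbound regions chosen the same way had medians of 0.59 and 0.28. These ratios are not centred. All all-stage DHS had medians of 0.14 and -0.09 for these steps, so the scale widens the contrast between the steps. In the next-to-tallest height class the medians were 0.92 and 0.12 in 137 bound regions and 0.65 and 0.23 in 973 unbound ones. In the tallest class they were 0.58 and 0.13 in 70 bound and 0.59 and 0.15 in 285 unbound regions. The ratios share the ALP and ILCP values that chose these regions, so the medians of the steps are a description.

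The 326 bound regions lower in ILCP than in ALP differed more at the step from EILP to ILCP. Their median heights were 2.25 in ALP, 1.96 in EILP and 1.10 in ILCP, with median log2 ratios of -0.23 for EILP over ALP and -0.72 for ILCP over EILP. Unbound regions chosen the same way gave -0.25 and -0.76. The medians of all all-stage DHS for these steps were 0.14 and -0.09. The bound regions that were lower had a median strongest TCF1 peak of 5 tags, and those that were higher or within 1.5-fold had one of 6 tags. The median TCF1 fold enrichment was 5.26 in both the lower and the higher regions, and 5.31 in those within 1.5-fold.

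The share of bound regions higher at a later stage varied little with the strength of TCF1 binding, and the share lower at a later stage varied more. In 5 classes of TCF1 fold enrichment, the share of bound regions at least 1.5-fold higher in EILP than in ALP was 13.9%, 15.1%, 13.8%, 14.4% and 15.4%, from the weakest to the strongest. The share higher in ILCP than in ALP was 13.1%, 12.0%, 13.8%, 11.9% and 13.1%. The shares at least 1.5-fold lower were 2.88%, 4.82%, 5.30%, 4.01% and 2.24% for EILP over ALP, and 9.78%, 11.2%, 13.3%, 9.15% and 8.81% for ILCP over ALP. Both were highest in the middle class and lowest in the strongest. The shares lower in EILP rest on 18, 30, 33, 25 and 14 regions. The middle class also had the lowest median ALP height (1.93) and the strongest class the highest (2.58). Height thus moves with these shares, and its part in them was not tested. Across the 3117 regions, TCF1 pileup had a Spearman rho of 0.06 with the EILP over ALP ratio and 0.05 with the ILCP over ALP ratio, given as a description over regions that share the same libraries. With height itself the rho of TCF1 pileup was 0.42 in ALP, 0.49 in EILP and 0.47 in ILCP. For TCF1 fold enrichment, the measure that set the classes, the rho with height was lower, at 0.11, 0.14 and 0.13. Heights of the same region in EILP and ALP had a rho of 0.84 in bound and 0.75 in unbound regions. Bound regions have more tags, and their part in the higher rho was not tested.

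By order of the stages, 681 bound regions (21.8%) were higher at each successive stage, 483 (15.5%) lower at each, 1407 (45.1%) highest at EILP and 546 (17.5%) lowest at EILP. All all-stage DHS divided in much the same way, with 20.8%, 16.1%, 42.2% and 20.9%. After centring, 30.3% of bound regions were highest and 27.4% lowest at EILP, and the corresponding shares of all all-stage DHS were 29.4% and 28.3%.

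The 5 bound regions with the highest TCF1 fold enrichment were well open at every stage. At chr5:110536639-110536990, with a TCF1 fold of 12.0 and 14 TCF1 tags, the DHS had 29, 35 and 35 tags in ALP, EILP and ILCP. At chr4:97285427-97285964 (fold 12.0, 13 TCF1 tags) it had 26, 22 and 30 tags, and at chr7:112892779-112893212 (fold 11.5, 12 tags) it had 44, 57 and 57. At chr13:55470953-55471431 (fold 11.5) the counts were 32, 42 and 27, and at chr14:45838892-45839483 (fold 11.2) they were 59, 58 and 63. The ILCP over ALP ratios of these 5 ranged from 0.826 to 1.27 and every interval included 1. In the chr13 region ILCP was lower than EILP, with a ratio of 0.570 (0.338 to 0.946).

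The regions named next were chosen for the size of their difference between stages, among bound regions with at least 30 tags in a stage, so their ratios are a description, and the intervals take no account of that choice. Of the 1814 such regions, 425 were higher at each successive stage (23.4%; 22.6% of all 10982 all-stage DHS of that height), and 44 of these were at least 2-fold higher in ILCP than in ALP (2.43%; all 2.45%). The largest difference was at chr7:29478381-29479075, a region of 695 bp with 6, 36 and 54 tags in ALP, EILP and ILCP, or heights of 0.483, 3.20 and 4.26. ILCP over ALP was 8.81-fold there (3.80 to 25.1), and most of it was present by EILP (6.63-fold, 2.77 to 19.3). In ALP the region was near the lowest tag count of any bound region (5), and in ILCP it was above the 75th percentile of bound regions (41 tags).

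At chr2:91675203-91675722 the tags were 8, 27 and 41, and ILCP over ALP was 5.02-fold (2.32 to 12.4). On the same chromosome, at chr2:129436363-129436833, they were 9, 25 and 41, a ratio of 4.46 (2.14 to 10.4). The region at chr11:83363625-83364319 had 8, 26 and 33 tags, with 4.04-fold (1.83 to 10.1). In these 3 regions EILP was already 3.07-fold to 3.73-fold above ALP. The region at chr4:57929236-57929594 differed evenly over the steps, with 9, 17 and 39 tags and ratios of 2.09 (0.880 to 5.32) for EILP over ALP and 2.03 (1.12 to 3.83) for ILCP over EILP. The strongest TCF1 peaks of the 5 regions had 7 to 10 tags.

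In the other direction, 287 bound regions with at least 30 tags were lower at each successive stage (15.8%; all 16.8%), and 54 of them were at least 2-fold lower in ILCP than in ALP (2.98%; all 5.01%). The largest difference was at chr1:35870469-35870918, with 38, 28 and 6 tags and an ILCP over ALP ratio of 0.155 (0.0534 to 0.369). At chr3:37704591-37705078 the tags were 46, 31 and 12, a ratio of 0.256 (0.123 to 0.491). At chr11:20131155-20131530 they were 34, 27 and 9, a ratio of 0.259 (0.109 to 0.552), and this region carried a TCF1 peak of 10 tags with a fold of 9.74. The regions at chr12:8354868-8355192 (30, 24 and 8 tags) and chr15:63479555-63480125 (35, 27 and 10 tags) had ratios of 0.261 and 0.280. In all 5 the EILP over ALP ratio was between 0.745 and 0.884 with an interval that included 1, and the ILCP over EILP ratio was between 0.190 and 0.343 with an interval below 1.

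**Figure D4:**
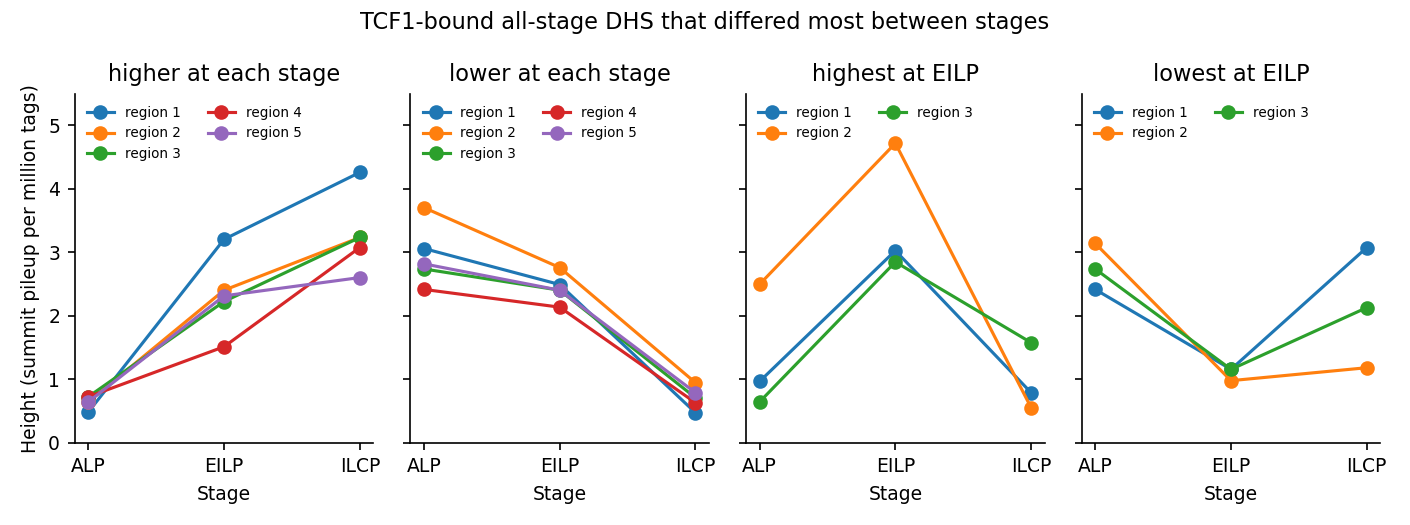
Height at each stage of the TCF1-bound all-stage DHS with the largest differences, as summit pileup per 1000000 tags, 1 line per region, numbered from the largest difference in each panel. Regions higher at each stage are at 0.483 to 0.725 in ALP, and those lower at each stage are at 0.473 to 0.946 in ILCP.

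A few bound regions stood out at the stage where TCF1 was measured. At chr19:55734606-55735072 the tags were 12, 34 and 10, so EILP was 3.45 times the mean of the other 2 stages, and the TCF1 summit lay 7 bp from the DHS summit. At chr9:21507292-21507562 they were 31, 53 and 7, and at chr17:29996719-29997275 they were 8, 32 and 20, with EILP at 3.10 and 2.56 times the mean of the others. The chr9 and chr17 regions had TCF1 peaks of 12 tags. The regions lowest at EILP were chr9:63554188-63554562 with 30, 13 and 39 tags, chr11:94994655-94994981 with 39, 11 and 15, and chr11:46140111-46140561 with 34, 13 and 27. The last of these had a TCF1 peak of 11 tags with a fold of 10.3, although EILP was the stage where it was least open, at 0.475 times the mean of the others.

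The tallest bound regions were a pair on chromosome 17 that stand apart from the rest. The region at chr17:39980012-39983309, 3298 bp wide, had 132, 138 and 168 tags and 6 TCF1 peaks of up to 43 tags, and the region at chr17:39984459-39985749 had 139, 149 and 164 tags and a TCF1 peak of 37 tags. Their fold enrichment was low for such heights, 2.22 to 2.69 in the DHS lists and 2.90 and 2.79 in the TCF1 list, and the fold is taken over local background. No other bound region exceeded 79 DHS tags or 18 TCF1 tags. Of the 36734 unbound all-stage DHS, 10 exceeded 100 tags in a stage. Leaving out all regions over 100 tags removed these 2 from the bound set and left each count past 1.5-fold and each median ratio of bound regions as it was. The next tallest in EILP was chr8:108861744-108862218, with 47, 73 and 68 tags.

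Apart from the chromosome 17 region, the regions with most TCF1 peaks were chr11:117733167-117733799 and chr7:105225225-105225682, with 3 peaks of at most 6 tags each. The first had 26, 24 and 26 DHS tags and the second 24, 21 and 14, a ratio of ILCP over ALP of 0.571 (0.273 to 1.15).

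Bound all-stage DHS were spread over all 20 chromosomes analysed. The share of all-stage DHS that were bound ranged from 5.15% on X (37 of 718; 3.76 to 7.02) to 9.50% on chromosome 11 (295 of 3104; 8.52 to 10.6). Chromosome 1, with 2487 all-stage DHS, was also at the low end (6.35%, 5.46 to 7.38). The median ILCP over ALP log2 ratio of bound regions per chromosome lay between -0.03 on X and 0.11.

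Bound regions lay closer to another bound region than unbound regions did. The median distance from a bound region to the nearest other bound region was 95.8 kb, and from an unbound all-stage DHS to the nearest bound one 134 kb. Another bound region lay within 10 kb of 361 of 3117 (11.6%), against 6.84% of unbound regions. The sets were not matched for height or width, and the part of these in the spacing was not tested. Most such groups were pairs: 173 runs had neighbours within 10 kb, 13 runs had at least 3 members, and 2 had 4.

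The 2 runs of 4 were singled out after their values were seen. In both, the log2 ratios of ILCP over ALP had both signs. No interval was computed for these ratios, so their counting error is not given. On chromosome 7 between 28326380 and 28338394, a stretch of 12.0 kb in which all 4 DHS were bound, the heights in tags were 47, 33 and 49, then 37, 30 and 38, then 34, 31 and 21, then 42, 40 and 59 in ALP, EILP and ILCP. The third region had a log2 ratio of ILCP over ALP of -0.73 and the fourth one of 0.46, which is short of 1.5-fold. On chromosome 9 between 114679388 and 114691268 the outermost region was higher in EILP than in ALP (19, 41 and 36 tags). The other 3 regions there were lower in ILCP than in ALP, with 38, 21 and 20, then 29, 25 and 16, then 26, 24 and 20 tags. That stretch was 11.9 kb long.

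The windows of 1 Mb with most bound regions were on chromosome 11 from 115000001 (16 of 74 all-stage DHS, 21.6%), chromosome 7 from 52000001 (15 of 92, 16.3%) and chromosome 8 from 73000001 (14 of 78, 17.9%). A window on chromosome 10 from 80000001 also held 14.

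DHS around the bound regions that were lower in ILCP were more often lower too. Of the unbound all-stage DHS within 10 kb of a bound region that was at least 1.5-fold lower in ILCP than in ALP, 21.7% (67 of 309 pairs) were lower by as much themselves, against 12.4% (255 of 2057 pairs) around bound regions within 1.5-fold and 9.82% (33 of 336 pairs) around those that were higher. The share declined with distance, to 18.2% at 10 to 50 kb, 16.6% at 50 to 200 kb and 14.4% at 200 to 1000 kb. Unbound DHS that were lower in ILCP had neighbours of the same kind, with 21.0% of 3697 pairs within 10 kb, and the difference between the sets was not tested.

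For bound regions that were higher in ILCP the shares were closer. Within 10 kb of them, 13.4% (45 of 336 pairs) of unbound DHS were also higher by 1.5-fold, against 12.1% (249 of 2057) around bound regions within 1.5-fold. Around unbound regions that were higher in ILCP the share was 16.4% (612 of 3730 pairs). Pairs from 1 neighbourhood share regions and are not independent.

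**Figure D5:**
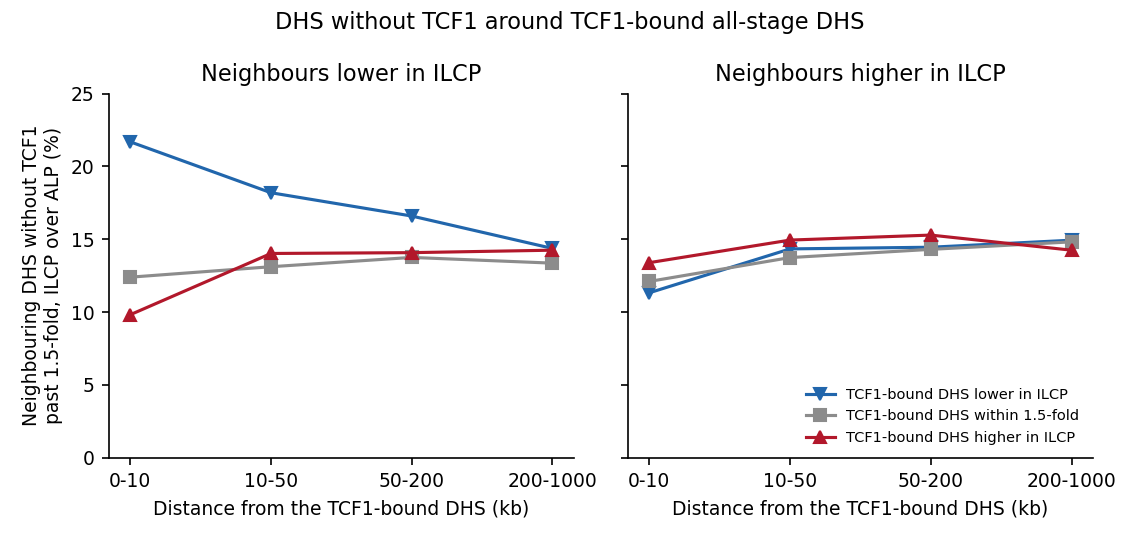
Percent of all-stage DHS without TCF1 that were at least 1.5-fold lower (left) or higher (right) in ILCP than in ALP, by distance in kb from a TCF1-bound all-stage DHS that was itself lower (blue), within 1.5-fold (grey) or higher (red). Points are shares of pairs; within 10 kb of lower regions 21.7% of neighbours were lower, and 9.82% within 10 kb of higher regions.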

How the data were processed

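The authors called each of the 4 deposited peak lists on 1 pooled tag file with MACS 2.1.1.20160309 at a q cutoff of 0.05, keeping 1 tag per position, with 50 bp tags and 100 bp fragments, per the file headers. DNase tags were centred on the cut and had no control, with background from 10 kb, whereas TCF1 was set against the pooled IgG file, per the file headers. That control includes a library number whose 2 libraries are titled TCF1 in the labels, and these were put in no group. Positions are on mm9 (the submitters' processing notes), and the aligner is not given in the sources used here. The deposited pileup signal counts overlapping extended tags at a summit and cannot pass 200, the fold enrichment ratio and the −log10 of the q-value are the authors' own, and peak length and summit were used as deposited. Technical repeats are among the pooled libraries.

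With Python 3.11.15, pandas 2.3.3 and scipy 1.17.1, peaks on chromosomes 1 to 19 and X were merged at 1 bp of overlap, and a region's height in a stage was its highest pileup per 1000000 filtered tags. A difference was counted past 1.5-fold. Ratios of single regions have exact conditional binomial 95% intervals and shares have Wilson intervals. The difference of 2 shares has a Newcombe interval. The counting code was run on simulated lists with heights set far above the real ones. That run therefore says nothing on counting error at the real depth. Named regions were the 5 with the highest TCF1 fold, the 5 largest differences each way in ILCP over ALP, the 3 highest and 3 lowest at EILP, the 3 with most TCF1 peaks, the 3 tallest and the 3 windows of 1 Mb with most members. The members, classes and lists were chosen with earlier results of these data known. Gene names, promoter shares and motifs need mm9 references and were not used here.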

Additional observations from a re-analysis of the deposited data

How the results depend on the processing

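No paired analysis was possible because each list pools its libraries, and for the same reason no replicate was left out. Promoter and motif shares were not run. Leaving out regions over 100 tags was chosen after seeing the data. Of 168 alternative values for 12 results under 14 settings, 140 stayed within 1.5 times (counts) or within the interval of the reported value (shares and medians). Some of the 140 could not move. Scaling and the fold threshold do not change which regions are bound, and the fold threshold does not change a median ratio. TCF1 peaks with −log10 q of 3 or more left 1962 regions (4.92% of all-stage DHS), with 291 higher and 77 lower in EILP than in ALP, 68 and 261 for ILCP over EILP, and 252 and 206 for ILCP over ALP. The set is smaller there, and its part in these counts was not tested. The share bound was 7.45% with exactly 1 peak per list, 11.2% with at least 20 tags in a stage and 7.36% with the TCF1 summit inside the region. At 2-fold the counts were 165 higher and 17 lower in EILP than in ALP, 17 and 142 for ILCP over EILP, and 149 and 127 for ILCP over ALP. Scaling moved the steps at EILP. With median centring, 227 bound regions were lower in EILP than in ALP and 194 higher in ILCP than in EILP, and with scaling to the tags of all-stage DHS 198 and 212. The median log2 ratios became 0 and 0.00912 for EILP over ALP, -0.00500 and 0.0138 for ILCP over EILP, and 0.00332 and 0.0400 for ILCP over ALP under these 2 scalings. With at least 20 tags in a stage, the difference in the next-to-tallest class was 2.80 percentage points. The classes are cut anew there and hold taller regions. TCF1 peaks had a median of 5 tags over the whole list, so a DHS without a TCF1 peak is not shown to be unbound.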
